A study of Mus musculus with 4 samples.

Results

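Selp, Sele, Vcam1, Icam1, Icam2, Vwf, Pecam1 and Cd34 are genes of the vessel wall whose products catch passing leukocytes and platelets or sit in the seams that leukocytes cross. These 8 genes were taken by symbol from the 31053 gene features of the count matrices, and their unique molecular identifiers (UMIs) were summed per library and within 4 sets of cells defined by marker pairs. A cell entered a set, here called a gate, when it held at least 1 UMI of both genes of the pair. The pairs were Clec4g and Stab2 for sinusoidal endothelium, Ly6c1 and Adgrg6 for vascular endothelium, Rspo3 and Wnt9b for central vein endothelium, and Upk3b and Nkain4 for mesothelium, the sheet of cells that covers the liver.

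The study profiled single liver cells, other than hepatocytes, with the 10x Genomics 3' v2 method in a mouse model of steatohepatitis. All mice carried Col1a2-CreERT2, an inducible Cre under a collagen promoter, and a tdTomato reporter, which marks cells with a history of collagen expression. The labels call the cells positive or negative, which the series design ties to that reporter. The 3 libraries used, each 1 of its kind, are tdTomato-positive cells of recovery mice, tdTomato-negative cells of recovery mice, and tdTomato-negative cells of mice injured by MCDHF, a methionine- and choline-deficient feed with 45% fat and 0.1% L-methionine in the water, given for 8 weeks. The genotype labels spell the reporter R27RtdTomato in the positive recovery library, R29RtdTomato in the negative recovery library and R28RtdTomato in the negative injury library, whereas the series design spells it R26RtdTomato. The series design gives this feed for the study as a whole and names no group without it, but what the recovery mice were fed after injury is not stated. How long recovery lasted, the age and sex of the mice and how many were pooled are not stated, and tdTomato is not among the features.

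Leukocytes leave the blood in steps. P-selectin and E-selectin, the products of Selp and Sele, tether rolling leukocytes, and Vcam1 and Icam1 then bind leukocyte integrins and stop the cell. Selp, Sele, Vcam1 and Icam1 are textbook targets of NF-κB in endothelium exposed to inflammatory cytokines, whereas Icam2 and Pecam1 are carried by resting endothelium. Von Willebrand factor, encoded by Vwf, is stored with P-selectin in the Weibel-Palade bodies of larger vessels, while healthy liver sinusoids are known for holding little of either. Cd34 encodes a sialomucin of many vessels that fibroblast-like and mesothelial cells can carry as well.

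In the mm10 annotation, all 8 are protein-coding genes. Sele (ENSMUSG00000026582, chr1:164048234-164057677) and Selp (ENSMUSG00000026580, chr1:164115264-164150026) lie near each other on the forward strand. Cd34 (ENSMUSG00000016494, chr1:194938819-194961279) also lies on chromosome 1, forward strand. Vcam1 (ENSMUSG00000027962) is at chr3:116109949-116129688 on the reverse strand, Vwf (ENSMUSG00000001930) at chr6:125546774-125686679 on the forward strand and Icam1 (ENSMUSG00000037405) at chr9:21015985-21028817 on the forward strand. Icam2 (ENSMUSG00000001029, chr11:106377656-106388075) and Pecam1 (ENSMUSG00000020717, chr11:106654217-106750628) both lie on the reverse strand of chromosome 11. Annotated genes on the opposite strand overlap Selp, Cd34, Vcam1 and Icam1. Whether the counting used strand, and so kept reads of those pairs apart, is not given in the sources used here.

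Promoter sequences from RefSeq (GRCm38.p6), the 250 bases before each RefSeq start, were matched for 4 of the 8 genes. For Icam1 and Cd34 this start differs from the one given above, and distances below are counted from the RefSeq start. They are shown because Selp, Sele and Icam1 are NF-κB targets whose levels are compared between recovery and injury here, beside Cd34, whose levels lay elsewhere. The windows are chr1:164115014-164115263 for Selp, chr1:164047984-164048233 for Sele, chr9:21015690-21015939 for Icam1 and chr1:194938571-194938820 for Cd34, all on the forward strand and written 5′ to 3′. Capitals mark letters that match GGNNNTTCC on either strand (both ends of a κB element), TATAAA on the forward strand, or TTCCNGGAA (the STAT palindrome).
Selp: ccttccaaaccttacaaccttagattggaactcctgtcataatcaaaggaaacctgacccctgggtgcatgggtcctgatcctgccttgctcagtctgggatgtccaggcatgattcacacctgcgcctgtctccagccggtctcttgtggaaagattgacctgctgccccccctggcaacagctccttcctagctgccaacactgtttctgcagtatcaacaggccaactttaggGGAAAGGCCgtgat
Sele: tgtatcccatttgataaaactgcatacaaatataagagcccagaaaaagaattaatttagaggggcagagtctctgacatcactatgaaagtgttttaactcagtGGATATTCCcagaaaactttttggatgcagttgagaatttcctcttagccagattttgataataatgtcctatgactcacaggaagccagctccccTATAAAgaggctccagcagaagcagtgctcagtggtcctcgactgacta
Icam1: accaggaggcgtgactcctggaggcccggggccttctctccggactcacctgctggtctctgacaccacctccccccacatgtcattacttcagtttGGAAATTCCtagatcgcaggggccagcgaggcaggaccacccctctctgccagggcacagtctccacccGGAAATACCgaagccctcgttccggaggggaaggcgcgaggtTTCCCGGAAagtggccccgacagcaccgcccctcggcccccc
Cd34: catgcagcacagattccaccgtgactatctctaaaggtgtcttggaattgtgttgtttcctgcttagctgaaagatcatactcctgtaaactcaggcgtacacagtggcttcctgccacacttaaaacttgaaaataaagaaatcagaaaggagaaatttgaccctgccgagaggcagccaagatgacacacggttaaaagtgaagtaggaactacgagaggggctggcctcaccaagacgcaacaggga
The κB letters stood 14 to 6 bases before the start of Selp, read on the reverse strand, 145 to 137 bases before that of Sele, and 153 to 145 and, on the reverse strand, 84 to 76 bases before that of Icam1. TATAAA stood 49 to 44 bases before the start of Sele and TTCCNGGAA 42 to 34 bases before that of Icam1. Of 32851 promoter windows of the same length, 15.7% held GGNNNTTCC, 7.59% held TATAAA and 0.913% held TTCCNGGAA. The letters were chosen after the sequences had been seen, and a match is a description of the letters only.

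After filtering there were 2380 cells of positive recovery, 2949 of negative recovery and 5443 of negative injury, with median depths of 11232, 8670 and 6849 UMIs. The sinusoidal gate held 206, 2191 and 3388 of these cells, the mesothelial gate 1340, 85 and 293, the central vein gate 10, 148 and 207, and the vascular gate 17, 54 and 122. Positive recovery was not used for the vascular and central vein gates, which were under the 30 cells required, and 16 of its 17 vascular-gated cells also met the mesothelial gate. The gates overlapped, with 54 of 148 central vein-gated cells of negative recovery and 131 of 207 of negative injury also meeting the sinusoidal gate. Of the vascular-gated cells, 36 of 54 in negative recovery and 63 of 122 in negative injury met it too. Orders of the gates given below therefore do not compare separate sets of cells. The vascular gate of negative injury carried 6331 UMIs per 1000000 UMIs (CPM) of 12 cholangiocyte markers, against 39.4 CPM in negative recovery, so the vascular levels of negative injury are given again, after those of the whole gate, without cells that met a cholangiocyte, stellate or myeloid gate. Pairs of libraries shared 3 to 9 cell barcodes.

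Levels are CPM within the named cells, with the exact 95% Poisson interval in brackets. With 1 library a group there is no test, and intervals cover counting error only, not the spread between mice or between cells. UMIs of 1 cell are counted as independent, so the intervals are too narrow where few cells hold most of the UMIs. A difference is the log2 ratio of the first library to the second after adding 10 CPM to both, which understates the ratio at low levels, and a gene was called higher or lower where the ratio passed 2-fold. Brackets or bars at a ratio set the low end of one level's interval against the high end of the other's. They are not a 95% interval of the ratio.

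The leukocyte-catching genes Selp, Sele, Vcam1 and Icam1 were lower in the tdTomato-negative cells of recovery mice than in those of injured mice, with the largest difference for Selp in sinusoidal-gated cells. Icam2, Pecam1 and Vwf, genes of resting or larger vessels, mostly lay within 2-fold. In sinusoidal-gated cells 4 of the 8 genes were lower and 0 higher, where 2.77% of all genes tested were lower and 0.662% higher. In central vein-gated cells 3 of 8 were lower (Selp, Sele and Icam1) and 0 higher, against 3.21% and 2.21% of all genes. In vascular-gated cells 2 were lower (Selp and Icam1) and 2 higher (Icam2 and Cd34), against 6.89% and 2.89%. Without cells of another type's gate the vascular tally was 3 lower (Selp, Vcam1 and Icam1) and 0 higher. With gates of 2 UMIs it was 4 lower (Selp, Vcam1, Icam1 and Vwf, but not Sele) and 0 higher. In mesothelial-gated cells 2 were lower (Vcam1 and Icam1) and 0 higher, against 2.45% and 2.71%. In all cells Selp, Sele, Vcam1 and Icam1 were lower and 0 were higher, against 3.17% and 1.58%, with ratios of -1.86, -1.15, -1.20 and -1.16. All 8 passed the filter of a mean of 10 CPM in these comparisons, except in the mesothelial gate, where 4 did (Vcam1, Icam1, Pecam1 and Cd34). The median log2 ratio of the 8 was -0.89 in sinusoidal-gated cells, against 0.16 for all genes tested there.

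**Figure D1:**
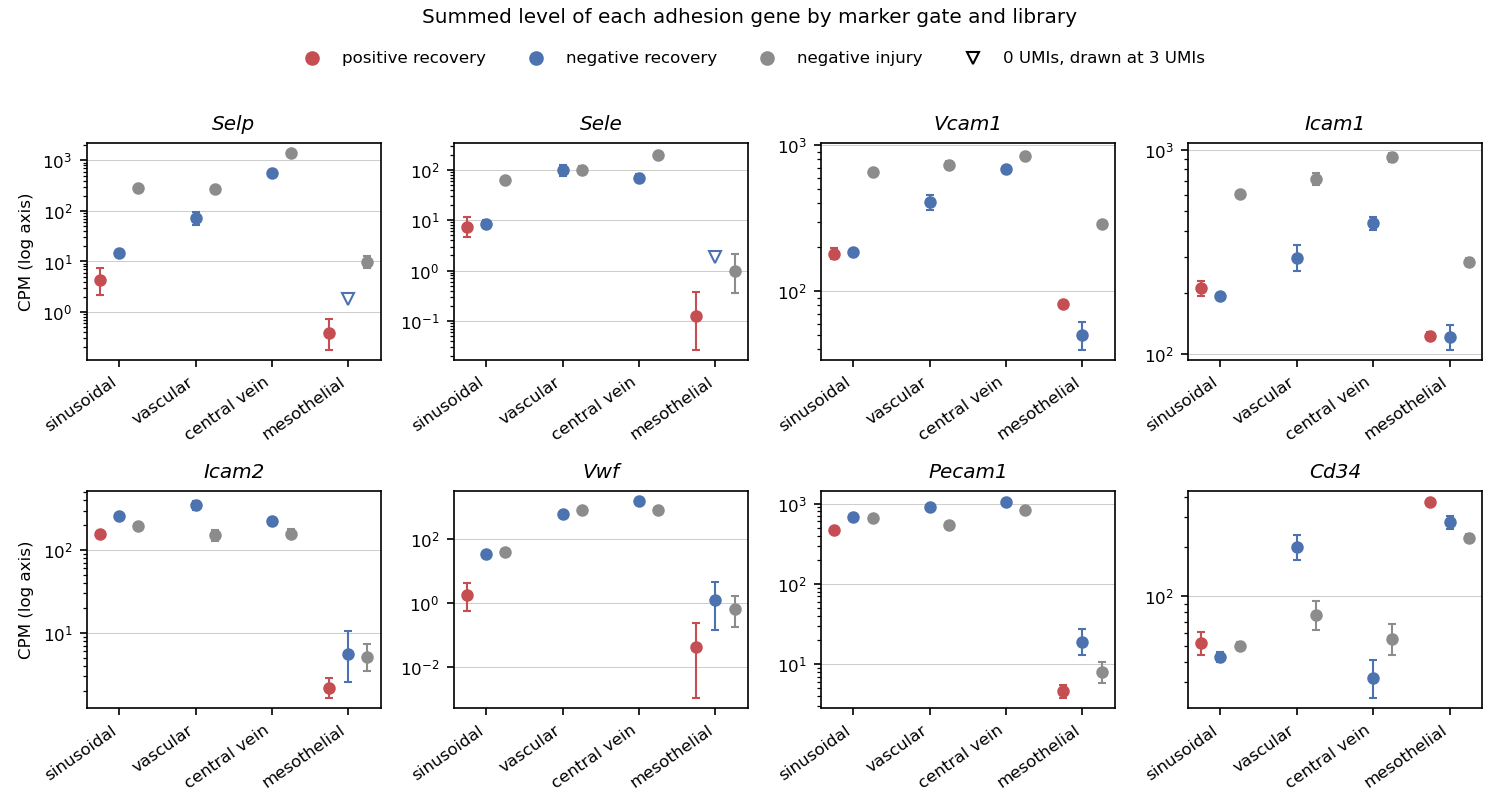
Level of each gene (CPM, log axis, each panel with its own range) in the 4 gates, with 1 point per library and bars for the exact 95% Poisson interval. Selp, Sele, Vcam1 and Icam1 in sinusoidal-gated cells sit lower in negative recovery than in negative injury, whereas Icam2 and Pecam1 lie close together there.

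Selp, the gene of P-selectin, had its highest level in central vein-gated cells. It stood there at 558 CPM (524 to 593) in negative recovery and 1373 CPM (1317 to 1431) in negative injury. Sinusoidal-gated cells held 4.23 CPM (2.19 to 7.39) in positive recovery, 14.9 CPM (13.2 to 16.8) in negative recovery and 288 CPM (281 to 295) in negative injury. Vascular-gated cells held 72.5 CPM (53.1 to 96.7) in negative recovery and 268 CPM (240.2 to 298) in negative injury, where the interval overlapped that of the sinusoidal gate. The richest 5 of the 54 vascular-gated cells of negative recovery held 78.3% of their Selp UMIs, with 23 of 46 in 1 cell. In the negative injury cells that met no other type's gate, the vascular level was 373 CPM (332 to 418), above the 301 CPM (294 to 309) of the sinusoidal gate. In mesothelial-gated cells Selp was at 0.385 CPM in positive recovery, at 0 UMIs in negative recovery, which at a floor of 3 UMIs allows up to 1.85 CPM, and at 9.75 CPM in negative injury. Cholangiocyte-gated cells of negative injury, which should lack the gene, held 7.94 CPM, so the mesothelial level was close to background.

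Between recovery and injury Selp had a larger ratio in sinusoidal-gated cells than the other 7 genes had. Its log2 ratio of negative recovery over negative injury was -3.58 (-3.71 to -3.44), a level 19.3-fold lower in recovery before the 10 CPM were added. In central vein-gated cells the ratio was -1.28 (-1.43 to -1.14) and in vascular-gated cells -1.75 (-2.29 to -1.23). Whether these ratios differ between the gates was not tested. The cells that held the Selp UMIs differed as well. In negative recovery central vein-gated cells, 5.02% of the cells, held 84.4% of the library's Selp UMIs and sinusoidal-gated cells 23.5%. In negative injury central vein-gated cells held 25.0% and sinusoidal-gated cells 72%, and cells that met both gates are counted in both shares. The sinusoidal gate held 2191 of 2949 cells in negative recovery and 3388 of 5443 in negative injury, where the central vein gate held 207. Once cells that met another of the 4 gates were left out, sinusoidal-gated cells held 3.6 CPM in negative recovery and 263 CPM in negative injury.

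Selp was also uneven from cell to cell. In sinusoidal-gated cells thinned to 2000 UMIs each, 1 or more Selp UMI was found in 1.23% (0.803 to 1.79) of negative recovery cells and 25.5% (24.0 to 27.1) of negative injury cells. Thinning left out 73 of 2191 and 148 of 3388 cells, and the unthinned shares were 3.1% and 38.9% at median depths of 8416 and 6253 UMIs. The background share in cholangiocyte-gated cells, with median depths of 11667 and 15630 UMIs, was 0.274% (0.00694 to 1.52) in negative recovery and 0.709% (0.285 to 1.45) in negative injury. The intervals overlapped in negative recovery, whereas in negative injury the sinusoidal share lay far above background. The tenth of negative injury sinusoidal-gated cells richest in Selp held 64.5% of its UMIs, with up to 70 UMIs in 1 cell and a median of 0. In central vein-gated cells the thinned share was 50.7% (42.3 to 59.0) in negative recovery and 69.4% (62.6 to 75.6) in negative injury.

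Sele, the gene of E-selectin, was found in the vascular and central vein gates in both conditions and in sinusoidal-gated cells mainly at injury. It stood at 7.40 CPM (4.58 to 11.3), 8.51 CPM (7.24 to 9.94) and 62.7 CPM (59.5 to 66.1) in sinusoidal-gated cells of positive recovery, negative recovery and negative injury, and the ratio of negative recovery over negative injury was -1.97 (-2.14 to -1.80). Central vein-gated cells held 67.9 CPM (56.4 to 81.1) in negative recovery and 196 CPM (175 to 219) in negative injury, a ratio of -1.41 (-1.79 to -1.03). In vascular-gated cells the levels were 99.3 CPM (76.3 to 127) in negative recovery and 101 CPM (84.1 to 119.7) in negative injury, with overlapping intervals and a ratio of -0.02 (-0.59 to 0.54). The richest 5 of these 54 cells of negative recovery held 66.7% of their Sele UMIs. The order of the gates in negative recovery was vascular, central vein and sinusoidal, with overlapping intervals for the first pair. In negative injury it was central vein, vascular and sinusoidal, without overlap. The vascular level of negative injury without cells of another type's gate was 152 CPM (126 to 182), and its interval overlapped the 200.021 CPM (179 to 223) of the central vein gate. Mesothelial-gated cells held 0.128 CPM in positive recovery and 0.992 CPM (0.364 to 2.16) in negative injury. They held 0 UMIs in negative recovery, where the interval reached 2.27 CPM.

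**Figure D2:**
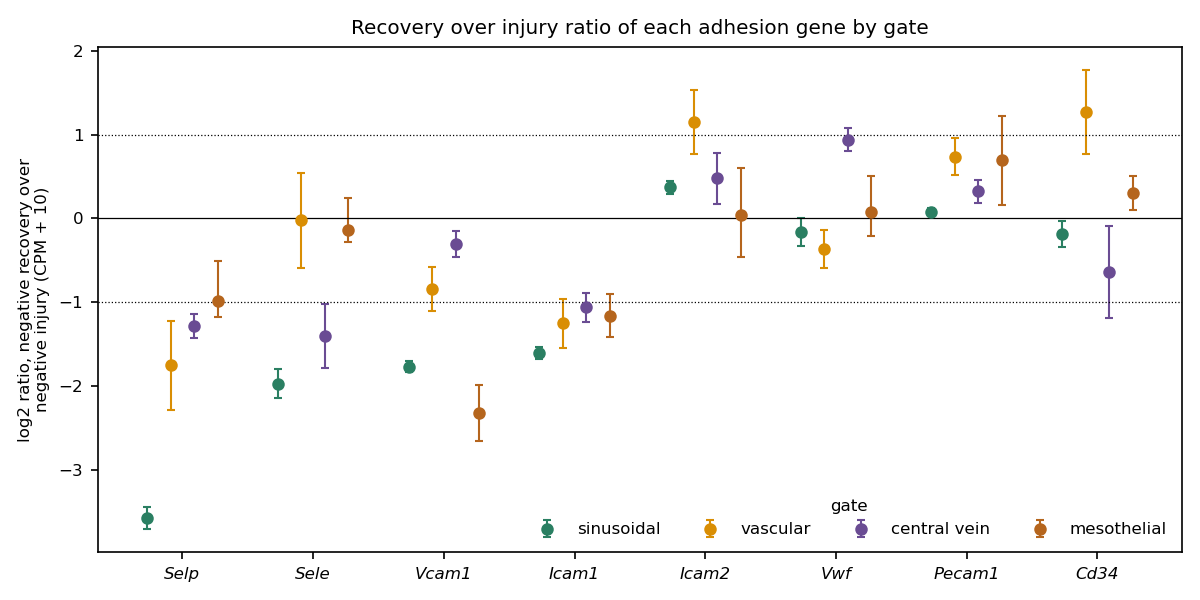
Log2 ratio of negative recovery over negative injury for each gene (horizontal axis) in the 4 gates, with bars for the interval from counting error and dotted lines at 2-fold. In sinusoidal-gated cells Selp is at -3.58 and Sele, Vcam1 and Icam1 lie between -1.97 and -1.60, while the other 4 genes lie within 2-fold.

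Vcam1, a ligand of leukocyte integrins, was found in the endothelial gates and, at lower levels, in the mesothelial gate. Sinusoidal-gated cells held 180.4 CPM (165 to 197) in positive recovery, 185 CPM (179 to 191) in negative recovery and 654 CPM (644 to 665) in negative injury. Negative recovery was 3.54-fold lower than negative injury there, a log2 ratio of -1.77 (-1.84 to -1.70). In central vein-gated cells the levels were 684 CPM (646 to 723) in negative recovery and 845 CPM (801 to 891) in negative injury, within 2-fold at -0.30. Vascular-gated cells held 407 CPM (358 to 459) in negative recovery and 737 CPM (691 to 786) in negative injury, a ratio of -0.84 that was -1.0 once cells meeting another type's gate were left out. The order of the gates was central vein, vascular, sinusoidal and mesothelial in both negative libraries, with no overlap between neighbours in the whole gates. Without cells of another type's gate, the vascular level of negative injury was 825 CPM (764 to 891), and its interval overlapped the 854 CPM (809.7 to 901) of the central vein gate. Vcam1 was not confined to these gates, with 66.8 CPM in cholangiocyte-gated cells of negative recovery and 209 CPM in those of negative injury.

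Mesothelial-gated cells gave Vcam1 its largest ratio. The gate held 81.7 CPM (78.1 to 85.4) in positive recovery, 49.8 CPM (39.6 to 61.9) in negative recovery and 289 CPM (276 to 303) in negative injury, and negative recovery over negative injury was -2.32 (-2.66 to -1.99). Thinned cells with a Vcam1 UMI made up 12.0% (10.2 to 14.0) of the gate in positive recovery, 5.88% (1.94 to 13.2) in negative recovery and 42.4% (36.6 to 48.4) in negative injury. Cholangiocyte-gated cells were at 11.2% (8.18 to 14.9) in negative recovery and 22.4% (19.8 to 25.1) in negative injury, so in negative recovery the mesothelial share did not exceed theirs. The 85 mesothelial-gated cells of negative recovery also carried more of the 12 sinusoidal markers than the 293 of negative injury, 443 against 160 CPM, and the part of this in the ratio was not tested.

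Icam1, which binds the integrins of neutrophils and lymphocytes, was called lower in negative recovery than in negative injury in each of the 4 gates, although with 50 CPM added the ratio was -0.996 in the central vein and -0.96 in the mesothelial gate, within 2-fold. Its levels in sinusoidal-gated cells were 209.7 CPM (193 to 227) in positive recovery, 192 CPM (186 to 199) in negative recovery and 605 CPM (595 to 615) in negative injury. Central vein-gated cells held 436 CPM (406 to 468) in negative recovery and 919.9 CPM (874 to 968) in negative injury, and vascular-gated cells 296 CPM (255 to 342) and 719 CPM (673 to 767). Mesothelial-gated cells held 123 CPM (119 to 128) in positive recovery, 121 CPM (105 to 139) in negative recovery and 283 CPM (269.9 to 297) in negative injury. The ratios of negative recovery over negative injury were -1.60 in the sinusoidal, -1.25 in the vascular, -1.16 in the mesothelial and -1.06 in the central vein gate. The order of the whole gates was the same as for Vcam1, again with no overlap between neighbours. The order turned in negative injury without cells of another type's gate, with the vascular gate at 999.995 CPM (932 to 1072) and the central vein gate at 913 CPM (867 to 961), whose intervals overlapped. Cholangiocyte-gated cells held 109.8 CPM in negative recovery and 214 CPM in negative injury. Thinned sinusoidal-gated cells had an Icam1 UMI in 23.4% of negative recovery and 57.3% of negative injury cells. The shares in cholangiocyte-gated cells were 21.1% (17.0 to 25.6) in negative recovery and 31.3% (28.4 to 34.3) in negative injury, so the sinusoidal share of negative recovery did not stand apart from theirs.

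Icam2, the integrin ligand of resting endothelium, did not follow Icam1. Sinusoidal-gated cells held 155 CPM (141 to 169.9) in positive recovery, 257 CPM (250.2 to 265) in negative recovery and 197 CPM (191 to 202) in negative injury, a negative recovery over negative injury ratio of 0.37. Central vein-gated cells held 224 CPM (202 to 247) in negative recovery and 158 CPM (139 to 178) in negative injury, a ratio of 0.48. The vascular gate stood at 345 CPM (301 to 394) in negative recovery and 149.9 CPM (129 to 173) in negative injury, called higher at 1.15, but the ratio was 0.58 without cells meeting another type's gate. The order was vascular, sinusoidal and central vein in negative recovery, without overlap, and sinusoidal, central vein and vascular in negative injury, where the last pair overlapped. Without cells of another type's gate, the vascular gate came first in negative injury as well, at 227 CPM (195 to 262), overlapping the 205 CPM (199 to 211) of the sinusoidal gate and above the 159.5 CPM (141 to 180.3) of the central vein gate. Mesothelial-gated cells held between 2.18 and 5.54 CPM. Sinusoidal-gated cells held 91.9% of the Icam2 UMIs of negative recovery and 92.1% of those of negative injury. They were 2191 of 2949 and 3388 of 5443 cells of these libraries.

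Vwf, which tethers platelets, was a gene of the central vein and vascular gates. Central vein-gated cells held 1479.7 CPM (1424 to 1537) in negative recovery and 766 CPM (725 to 810.0) in negative injury. Vascular-gated cells held 613 CPM (554 to 677) in negative recovery and 792 CPM (744 to 843) in negative injury, where the interval overlapped that of the central vein gate. The overlap was gone without cells of another type's gate, with 1214 CPM (1139 to 1293) in the vascular and 755 CPM (713 to 799) in the central vein gate of negative injury. Sinusoidal-gated cells held 1.76 CPM (0.572 to 4.11) in positive recovery, 32.5 CPM (30.01 to 35.2) in negative recovery and 37.7 CPM (35.2 to 40.3) in negative injury. The level of positive recovery was 5 UMIs, all in 1 of 206 cells. Mesothelial-gated cells held at most 1.23 CPM. The ratios of negative recovery over negative injury stayed within 2-fold, at 0.94 in the central vein, -0.37 in the vascular and -0.16 in the sinusoidal gate. With gates of 2 UMIs, however, the vascular ratio was -1.03, past 2-fold. Without cells that met another of the 4 gates, sinusoidal-gated cells held 6.92 CPM in negative recovery and 20.02 CPM in negative injury. In all cells Vwf was at 125 CPM in negative recovery and 66.4 CPM in negative injury, and in such sums more cells of a type and more RNA per cell cannot be told apart.

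Without cells meeting another type's gate, the vascular gate kept 54 cells in negative recovery and 105 in negative injury, with 39.4 and 728 CPM of cholangiocyte markers. The ratios of negative recovery over negative injury there were -2.21 for Selp, -0.57 for Sele, -1.72 for Icam1 and -0.97 for Vwf.

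The make-up of the central vein gate differed as well. The 8 central vein markers summed to 13077 CPM in negative recovery and 6945 CPM in negative injury, and the 12 sinusoidal markers to 4575 and 6624 CPM. In the 94 negative recovery and 74 negative injury cells that met the central vein gate and no other of the 4, Vwf was at 2057 and 1777 CPM, a log2 ratio of 0.21. Selp in the same cells was at 692 and 2166 CPM, a ratio of -1.63. In these cells the difference in Vwf was smaller than in the whole gate and that in Selp was not.

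**Figure D3:**
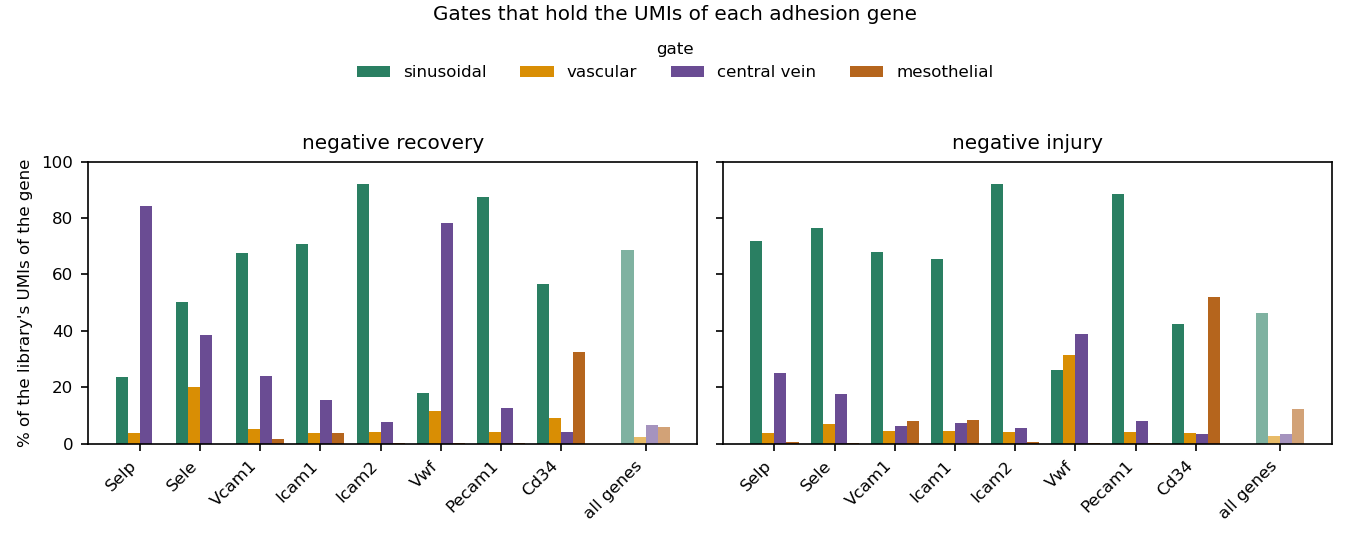
Share of each library's UMIs of a gene (percent, vertical axis from 0) held by cells of each gate in negative recovery (left) and negative injury (right), with the share of all UMIs in paler bars; a cell in several gates counts in each. Selp UMIs lie mostly in central vein-gated cells in negative recovery (84.4%) and in sinusoidal-gated cells in negative injury (72%).

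Pecam1, the junction molecule of endothelial seams, stayed within 2-fold between recovery and injury in each of the 4 gates. Sinusoidal-gated cells held 465 CPM (440.1 to 491) in positive recovery, 689.8 CPM (678 to 702) in negative recovery and 654 CPM (644 to 665) in negative injury. Central vein-gated cells held 1038 CPM (992 to 1086) in negative recovery and 829 CPM (785 to 874) in negative injury, and vascular-gated cells 919 CPM (846 to 996) and 547 CPM (507 to 589). The ratios of negative recovery over negative injury were 0.08 in the sinusoidal gate (-0.08 with TMM scaling), 0.32 in the central vein and 0.74 in the vascular gate, the last of which was 0.17 without cells meeting another type's gate. Intervals of the central vein and vascular gates overlapped in negative recovery. Without cells of another type's gate the vascular level of negative injury was 817 CPM (755 to 882), overlapping the 835 CPM (791 to 881) of the central vein gate, and in negative recovery those gates no longer overlapped. Mesothelial-gated cells held 4.58, 19.1 and 7.93 CPM in positive recovery, negative recovery and negative injury, against a background of 29.1 and 16.5 CPM in cholangiocyte-gated cells of negative recovery and negative injury.

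Cd34 was, among the 4 gates, highest in mesothelial-gated cells, unlike the other 7. They held 371 CPM (363 to 379) in positive recovery, 280.5 CPM (255 to 307) in negative recovery and 225 CPM (214 to 238) in negative injury, a negative recovery over negative injury ratio of 0.30. Vascular-gated cells held 199 CPM (165 to 236) in negative recovery and 76.5 CPM (62.1 to 93.2) in negative injury, a ratio of 1.27 that was 0.67 without cells meeting another type's gate, where the level of negative injury was 121 CPM (98.1 to 147). Sinusoidal-gated cells held 51.8, 42.7 and 49.8 CPM in positive recovery, negative recovery and negative injury, and central vein-gated cells 31.7 in negative recovery and 55.0 in negative injury. Mesothelial-gated cells held 91.6% of the Cd34 UMIs of positive recovery, 32.3% of those of negative recovery and 51.8% of those of negative injury. They were 1340 of 2380, 85 of 2949 and 293 of 5443 cells of these libraries. Intervals of the sinusoidal and central vein gates overlapped in both negative libraries. In thinned mesothelial-gated cells a Cd34 UMI was found in 46.1% (43.3 to 49.0), 52.9% (41.8 to 63.9) and 36.7% (31.1 to 42.7) of cells in positive recovery, negative recovery and negative injury, against 0.274% and 0.709% of cholangiocyte-gated cells in negative recovery and negative injury.

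Injured cells held more of Selp, Sele, Vcam1 and Icam1 per cell. Of thinned sinusoidal-gated cells, 0, 1, 2, 3 and 4 of Selp, Sele, Vcam1 and Icam1 were found in 60.9%, 30.1%, 8.59%, 0.38% and 0% of negative recovery cells. In negative injury the shares were 16.9%, 33.0%, 35.3%, 13.2% and 1.73%. Central vein-gated cells had 3 or 4 of the genes in 16.4% and 1.37% of negative recovery cells and in 33.5% and 11.7% of negative injury cells. Mesothelial-gated cells of negative injury had 2 of them in 20.5% and 3 in 0.35%, and those of negative recovery had at most 1.

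**Figure D4:**
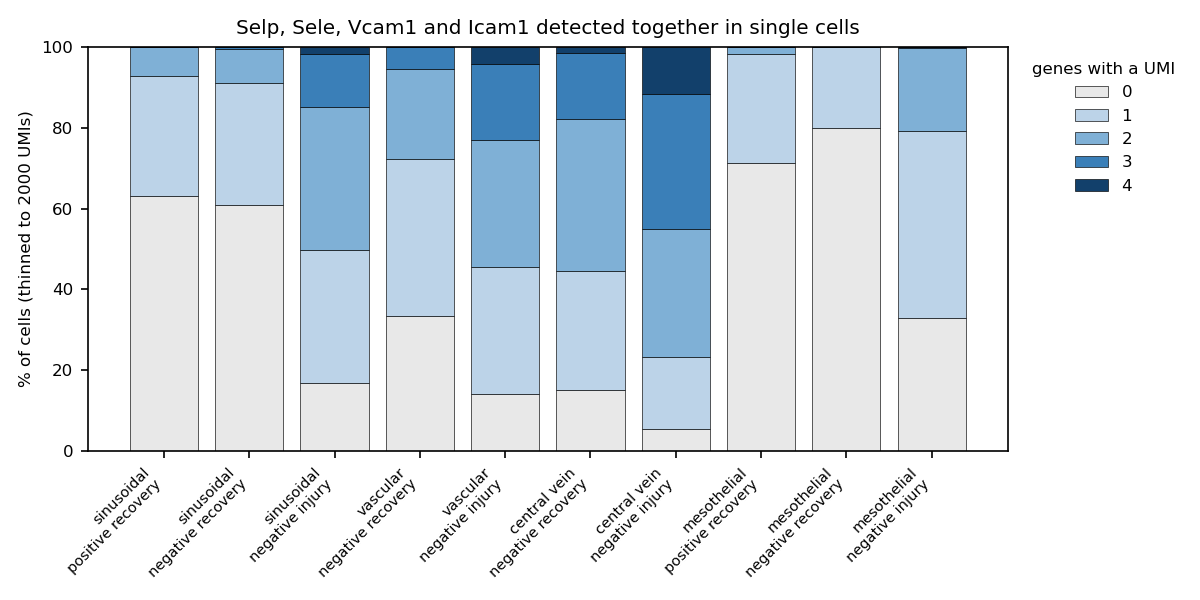
Percent of thinned cells (2000 UMIs each) in which 0 to 4 of Selp, Sele, Vcam1 and Icam1 were detected, by gate and library. Sinusoidal-gated cells with none of the 4 make up 60.9% in negative recovery and 16.9% in negative injury.

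Within negative injury, sinusoidal-gated cells that held a Selp UMI after thinning were compared with those that did not, 827 and 2413 cells with median depths of 6867 and 6190 UMIs. Sele was found in 14.5% of Selp-positive and 9.37% of Selp-negative cells, and Vcam1 in 64.1% and 53.9%. Icam1 was found in 61.8% of Selp-positive and 55.7% of Selp-negative cells, while Icam2 was found in 31.9% and 32.6% and Pecam1 in 72.7% and 72.5%. Vwf was found in 6.65% of Selp-positive and 3.94% of Selp-negative cells, and Cd34 in 8.10% and 8.74%. The intervals of Selp-positive and Selp-negative cells overlapped for Icam2, Pecam1 and Cd34 and not for Sele, Vcam1, Icam1 and Vwf. Before thinning, 131 cells of this gate also met the central vein gate, and their part in these shares was not tested. The cells are from 1 library and no test was made.

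Between the fractions at recovery, 1 of the 8 was higher and 4 lower in positive than in negative cells, where 8.44% of all genes tested were higher and 10.5% lower. All but Sele passed the filter. Cd34 was higher at 301 CPM (295 to 307) in positive recovery, against 51.8 CPM (49.2 to 54.6) in negative recovery, a log2 ratio of 2.33. Selp, Icam2, Vwf and Pecam1 were lower, at -2.10, -2.92, -3.26 and -3.21. In these sums the 1340 mesothelial-gated and 206 sinusoidal-gated cells of positive recovery stand against 85 and 2191 of negative recovery.

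Within a gate most of these differences between the fractions did not pass 2-fold. The vascular and central vein gates had too few positive cells to be compared. In sinusoidal-gated cells Vwf alone passed 2-fold, at 1.76 CPM in positive recovery and 32.5 CPM in negative recovery, a ratio of -1.85. Its positive level was 5 UMIs in 1 of the 206 cells. Of all genes in this gate, 0.25% were lower and 4.53% higher. Selp and Sele did not pass the filter there. Selp was at 4.23 CPM in positive and 14.9 CPM in negative recovery, and its ratio was -1.61 with 1 CPM added in place of 10. Levels of Selp, Icam2 and Pecam1 were lower in positive recovery without overlap of intervals, while intervals overlapped for Sele, Vcam1, Icam1 and Cd34. The 7 genes other than Vwf lay between -0.81 for Selp and 0.23 for Cd34 (-0.25 in cells that met no other of the 4 gates). In cells that met no other of the 4 gates 0 of 8 passed, with Vwf at 0 UMIs in positive recovery and 6.92 CPM in negative recovery. The 206 positive sinusoidal-gated cells carried 13583 CPM of 12 stellate markers, against 390 CPM in the negative ones. The 193 of them that met no other of the 4 gates still carried 13626 CPM, as stellate-gated cells were not left out there. Without cells that met a stellate, cholangiocyte or myeloid gate, 143 positive cells with 1670 CPM of those markers were left, and Vcam1 was at -0.57, Icam1 at -0.33 (against 0.12 in the whole gate), Icam2 at -0.34, Pecam1 at -0.17 and Vwf at -2.13. In mesothelial-gated cells 0 of 8 passed 2-fold (4 of 8, Vcam1, Icam1, Pecam1 and Cd34, passed the filter of 10 CPM), against 1.11% of all genes higher and 0.455% lower, with Pecam1 at -0.995, just inside the threshold (0.03 without the cells of highest doublet score), and Vcam1 at 0.62.

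Other genes of the pathway were read from lists of NF-κB components, Weibel-Palade and platelet contact genes, junction genes, selectin ligands, integrins and inflammatory receptors. In sinusoidal-gated cells 4 of 13 NF-κB genes measured were lower and 0 higher in negative recovery than in negative injury, with a median log2 ratio of -0.76 against 0.16 for all genes, of which 2.77% were lower. Tnfaip3, the deubiquitinase that dampens NF-κB, was at 45.9 CPM in negative recovery and 392 CPM in negative injury, a ratio of -2.84. Map3k8, a kinase of the same pathway, was at 53.3 and 187 CPM, a ratio of -1.64, and the inhibitor-like Nfkbiz at 295 and 836 CPM, a ratio of -1.47.

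Some genes of the NF-κB list were past 2-fold in the other gates too. Central vein-gated cells had 6 of 14 lower and 0 higher (median -0.77 against 0.11 for all genes, of which 3.21% were lower), led by Tnfaip3 at 28.9 CPM in negative recovery and 354 CPM in negative injury, a ratio of -3.22, and the interferon-responsive factor Irf1 at -1.72. Mesothelial-gated cells had 6 of 13 lower and 0 higher (median -0.95 against 0.11, with 2.45% of all genes lower), with Tnfaip3 at -3.65 and the inhibitor Nfkbia at 568 CPM in negative recovery and 2379 CPM in negative injury, a ratio of -2.05. Vascular-gated cells had 3 of 14 lower and 0 higher (median -0.54 against 0.10, with 6.89% of all genes lower), namely Tnfaip3 at -1.65, Map3k8 at -1.61 and Tnip1 at -1.06.

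The remaining lists were read in the same way. In sinusoidal-gated cells Thbd, the thrombin-binding anticoagulant thrombomodulin, was the 1 of 9 Weibel-Palade and platelet contact genes past 2-fold, at 268 CPM in negative recovery and 638 CPM in negative injury, a ratio of -1.22. None of 13 junction genes, 11 inflammatory receptors, 6 selectin ligand genes and 2 integrin genes passed 2-fold there. Of all genes tested in that gate, 2.77% were lower and 0.662% higher. In central vein-gated cells the endothelin gene Edn1 was higher in negative recovery, at 1087 against 487 CPM in negative injury, a ratio of 1.14, and the chemokine receptor Ackr1 lower, at 35.1 against 108 CPM, a ratio of -1.39. They were 1 of 8 Weibel-Palade and 1 of 13 junction genes measured, against 2.21% of all genes higher and 3.21% lower. In mesothelial-gated cells Gcnt1, an enzyme that builds selectin ligands, was at 103 CPM in negative recovery and 31.9 CPM in negative injury, a ratio of 1.44. The receptor gene Il6ra (1.20) and the junction gene Cldn5 (1.05) were also higher there, and the receptor genes Il4ra (-1.10) and Tnfrsf1b (-1.07) lower. Measured in that gate were 5 selectin ligand, 13 receptor and 9 junction genes, against 2.71% of all genes higher and 2.45% lower. A list of 12 general endothelial markers summed there to 748.5 CPM in negative recovery and 294 CPM in negative injury, and its part was not tested. Past 2-fold in the vascular gate were Cldn5, Edn1 and Il6st, which were higher in negative recovery (1.66, 1.38 and 1.08), and Cd24a, Cd44, Ocln and Alcam, which were lower. Measured there were 13 junction, 9 Weibel-Palade, 12 receptor, 6 selectin ligand and 3 integrin genes, against 2.89% of all genes higher and 6.89% lower. The cholangiocyte markers that differ in that gate stand beside these values, and their part was not tested.

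Blood cells could carry some of the same genes. Platelets hold P-selectin, and 10 platelet markers summed to 17.7 CPM in sinusoidal-gated cells of negative recovery and 49.0 CPM in those of negative injury. Most of the difference was Itga2b, at 5.14 and 35.6 CPM, while Pf4 was at 10.6 and 11.7 CPM and Gp1bb, Tubb1 and Gp6 were at 0 in both. The 12 lymphocyte markers summed to 1.34 and 0.623 CPM in the same cells. Those of 12 Kupffer and myeloid markers summed to 162.7 CPM in negative recovery and 198.5 CPM in negative injury there. In mesothelial-gated cells they summed to 64.0 and 243.5 CPM, and their part in the levels was not tested.

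The genes whose levels were most like those of each member were ranked by Pearson correlation over 16 classes, a class being the cells of 1 gate in 1 library, among 6544 genes. The classes share libraries and some cells, so the values are a description. Selp was nearest to Grrp1 (r = 0.96), then Sele (0.94) and Icam1 (0.94). Sele was nearest to Ch25h (0.97), Grrp1 (0.95) and Lrg1 (0.94), and Icam1 to Selp (0.94), Sele (0.90) and Inhbb (0.90). Vcam1 was nearest to Gsto1 (0.93), Gbp9 (0.92) and Phf11b (0.89). Vwf was nearest to the endothelin gene Edn1 (0.98), Grrp1 (0.97) and Slc52a3 (0.95). Icam2 was nearest to She, Nova2 and Dchs1 (0.99 each), and Pecam1 to the receptor gene Flt1, Kank3 and the endothelial sialomucin gene Emcn (0.99 each). Cd34 was nearest to Cavin1 (0.91), Kif13a (0.90) and Mgp (0.90). Among the 8, Icam2 and Pecam1 were most alike (r = 0.99), and Cd34 correlated with the other 7 at -0.19 to -0.047.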

How the data were processed

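Single-cell 3′ libraries of mouse liver cells were read as whole-number UMI counts per gene and cell, as deposited by the authors. Their file headers name software version 3.1.0. The submitters' processing notes name featureCounts 1.6.2 and the builds mm10 and GRCh38. No aligner is named. The positive injury library was not analysed here.

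Barcodes with at least 500 UMIs, 300 genes and at most 20% mitochondrial UMIs were kept, and cells called doublets by Scrublet in scanpy 1.11.5 were removed. The caller marked 108 of 2488 cells in positive recovery, 6 of 2955 in negative recovery and 5 of 5448 in negative injury, so it removed almost nothing from the negative libraries. Totals over kept cells were 31432462, 27200555 and 48622040 UMIs.

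UMIs were summed per gate and divided by the gate's total (CPM). Genes with a mean of 10 CPM over both libraries formed the background of each comparison. A comparison needed 30 cells in both libraries. Intervals are exact Poisson for levels and exact Clopper-Pearson for shares, at 95%. The ratio code was checked on simulated counts. From a pathway list up to 3 genes were named, those with the largest ratios past 2-fold, and for likeness the 3 genes with the highest correlation of log2(CPM + 10) among those reaching 50 CPM in a class. The members and lists were chosen with earlier results of these data known. Scaling alternatives used edgeR 4.0.16 in R 4.3.3, with Python 3.11.15, numpy 2.4.6, scipy 1.17.1 and pandas 2.3.3. Other alternatives were 1 or 50 CPM added, no filter, a gate of 2 UMIs, gates without cells that met another of the 4, at most 10% mitochondrial UMIs, and removal of the highest doublet scores. Genome positions are from GENCODE M21, in which 30934 of the 31053 IDs were found.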

Additional observations from a re-analysis of the deposited data

How the results depend on the processing

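Of 64 log2 ratios (8 genes in 8 comparisons), 23 passed 2-fold. All 23 kept their sign under each alternative run, and 15 stayed past 2-fold under each. The lower Selp, Vcam1 and Icam1 of recovery in sinusoidal-gated cells were among these 15, at -4.33 to -2.38, -1.94 to -1.58 and -1.78 to -1.43. Sele there ranged from -2.74 to -0.95, within 2-fold with 50 CPM added. TMM scaling shifted the ratios of recovery over injury by -0.13 to -0.21 and that of positive over negative recovery in all cells by 0.16. The number of genes past 2-fold changed by more than 1.5 times as follows. Positive over negative recovery gave 1 in the sinusoidal gate, against 2 with 1 CPM added, 0 with 50 CPM added and 0 in cells that met no other of the 4 gates. The mesothelial gate gave 0 there, against 3 with 1 CPM added and 1 with gates of 2 UMIs. Recovery over injury gave 4 in the vascular gate, against 2 with 50 CPM added, and 2 in the mesothelial gate, against 4 with 1 CPM and 1 with 50 CPM added. An added constant acts on low levels by construction; for the gates the cause was not tested. With no filter on low genes the share of all genes past 2-fold was 9.61% in place of 19% for positive over negative recovery in all cells and 1.67% in place of 3.43% for the sinusoidal gate at recovery over injury. Leaving out cells of a cholangiocyte, stellate or myeloid gate was chosen after seeing the data. Pecam1 in the mesothelial gate at recovery over injury was 0.70, and -0.19 without the cells of highest doublet score. Vascular-gated cells that met no other of the 4 gates (18 in recovery, 57 in injury) were too few and were not run. No paired analysis was possible because each group has 1 library, so no difference here has a replicate check.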

Other observations

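Vcam1 and Icam1 were also measured outside the vessel wall and the mesothelium. Stellate-gated cells, 218 in positive recovery and 46 in negative injury, held 223 CPM (208 to 239) and 367 CPM (318 to 420.0) of Vcam1 and 185 CPM (171 to 199.8) and 216 CPM (179 to 258) of Icam1. The 67 myeloid-gated cells of positive recovery held 445 CPM (400.2 to 493) of Vcam1 and 149 CPM (123 to 177) of Icam1. Each value is from 1 library, and the stellate-gated cells of the positive and negative fractions were not compared.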
